A study of Mus musculus with 6 samples.

Results

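Cholesterol and fatty acid genes were examined in CD4+ T cells isolated from mouse spleen during the acute phase of experimental autoimmune encephalomyelitis (EAE), a disease model in which immunisation sets the immune system against myelin. The list held 30 genes of the 54532 in the deposited count table, taken by gene symbol: 16 enzymes of sterol synthesis, 4 genes of sterol regulation and transport, 8 genes of fatty acid synthesis and 2 efflux transporters. The Ogt-KD group was 3 libraries from C57BL/6 mice of genotype Ogtfl/wt CD4-Cre, with 1 floxed and 1 wild-type allele of Ogt and the CD4-Cre transgene, whose Cd4 elements drive Cre in T cells. The control group was 3 libraries from C57BL/6 mice labelled wild type, with no floxed allele or Cre named, so effects of Ogt, of the Cre and of linked DNA cannot be told apart. Both groups had EAE, and the labels give no age. The labels number the replicates without saying that each came from a separate animal, so the p-values measure the spread between these 6 libraries.

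Cells make cholesterol from acetyl-CoA through mevalonate, squalene and lanosterol, and fatty acids from the same acetyl-CoA through malonyl-CoA. SREBP transcription factors switch on the genes of both routes when membrane sterol is low, and INSIG proteins hold them in the endoplasmic reticulum when sterol is high. Liver X receptors, which bind oxidised sterols, switch on the export pumps ABCA1 and ABCG1. T cells raise both synthesis routes when they are activated and divide.

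Total counts ran from 18127031 to 25683453 per library. Ogt itself, which encodes O-GlcNAc transferase, stood at 573 ± 104 CPM (read counts scaled to library size) in Ogt-KD libraries and 597 ± 32.8 CPM in control libraries (SD, n = 3 each), with a log2 fold change of -0.06 (SE 0.15). Whole-gene counts may take in exons outside the deleted part and check nothing about the deletion. The gene lies on chromosome X, and the share of cells in the Ogt-KD libraries that had less Ogt was not measured. T cell markers were present at similar levels, with Cd4 at 903, 872 and 739 CPM in Ogt-KD libraries and 847, 856 and 762 CPM in control libraries, and Cd8a stayed between 1.46 and 4.56 CPM. Replicate 3 of each group stood apart, with 10 macrophage markers summing to 680.4, 805 and 4037 CPM in Ogt-KD replicates 1, 2 and 3 and to 1683, 1769 and 4439 CPM in control replicates 1, 2 and 3. None of these markers was at 0 in any library. Results that rest on replicate 3 are therefore given with and without it.

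None of the 30 cholesterol and fatty acid genes differed between Ogt-KD and control cells at an adjusted p under 0.05. All 30 passed the filter on low counts and were tested among 16075 genes with the edgeR quasi-likelihood test, which called 0.00622% of all genes tested. By DESeq2, which called 0.638% of its genes, and by limma-voom 0 of the 30 passed as well. The authors' deposited table also held 0 of the 30 at an adjusted p under 0.05, where 0.417% of its genes were. At an unadjusted p under 0.05, edgeR had 1 of the 30, Insig1, against 7.52% of all genes, 5.04% higher and 2.48% lower in Ogt-KD cells. The log2 fold changes of the 30 lay between -0.33 and 0.17, 11 above 0 and 19 below, with a median of -0.03, and 49% of all genes tested lay above 0 with a median of -0.0048. In bulk libraries fewer cells of a type and less RNA per cell cannot be told apart.

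The 95% interval of the fold change lay within 2-fold in each direction for 28 of the 30 genes and within 1.5-fold for 20 of them. The exceptions to the 2-fold limit were Fads2, whose counts were low, and Abca1, whose Ogt-KD libraries were far apart. Among the 16 sterol enzymes all 16 intervals lay within 2-fold and 9 within 1.5-fold. These limits are the widths of the intervals and not a smallest detectable change.

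**Figure D1:**
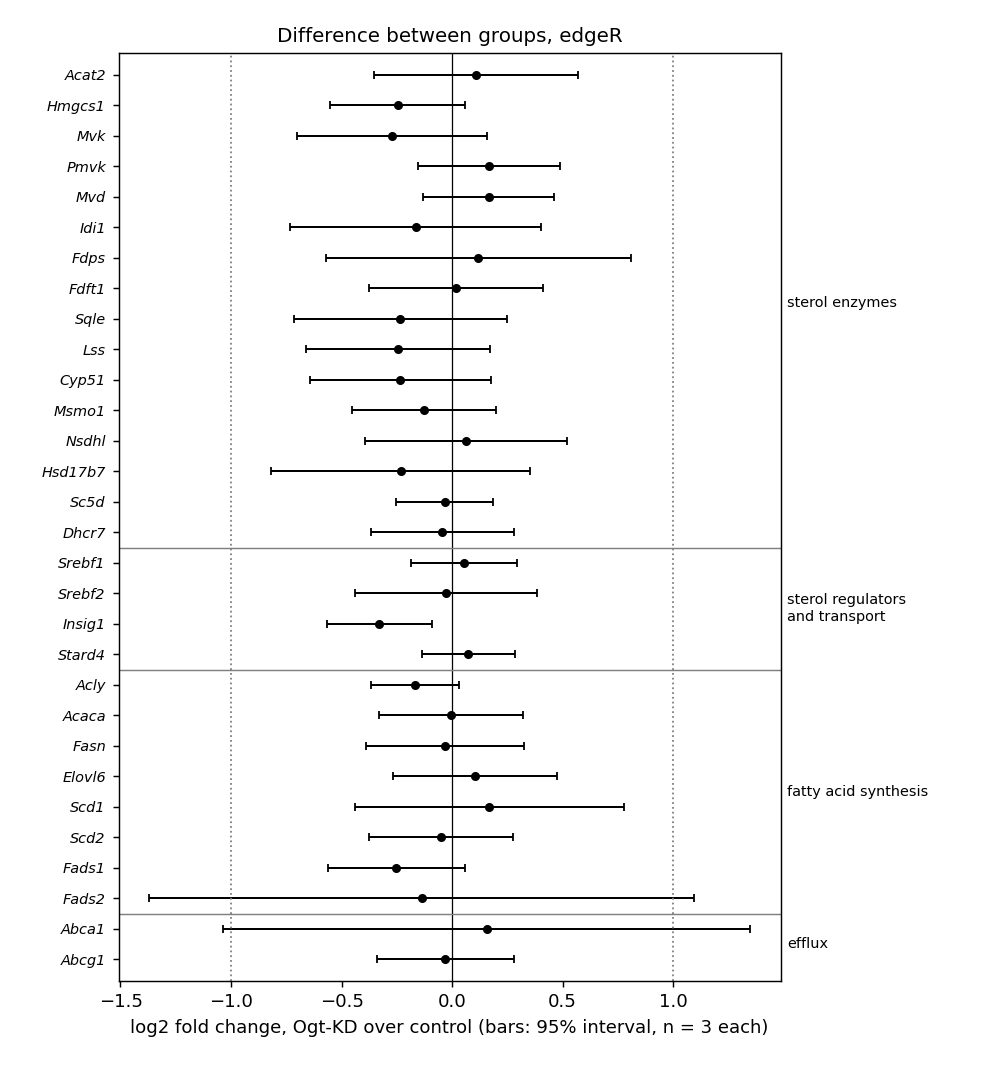
Change between Ogt-KD and control libraries as a log2 ratio, Ogt-KD over control (horizontal axis), for each of the 30 genes, by role, with points for the edgeR estimate and bars for its 95% interval (n = 3 libraries each). The bar of Insig1 alone leaves out 0, and those of Fads2 and Abca1 pass the dotted lines at 2-fold.

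For 4 of the 30 genes the 3 Ogt-KD values all lay below the 3 control values, and for 0 they all lay above. Groups failed to overlap for 13.3% of all genes tested, 7.43% with Ogt-KD higher and 5.88% with Ogt-KD lower. The 4 genes were Insig1, Hmgcs1, Acly and Fads1, which stand at a feedback step, the entry to sterol synthesis, the supply of acetyl-CoA and a desaturation step.

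Insig1, the feedback protein that retains SREBP in the endoplasmic reticulum and is itself an SREBP target, had the smallest p of the list. It stood at 40.3, 47.6 and 42.9 CPM in Ogt-KD libraries, against 54.6, 51.0 and 58.6 CPM in control libraries. The groups were separate, and the closest pair was replicate 2 of each. Its log2 fold change was -0.33 (SE 0.10, 95% interval -0.57 to -0.09), with an edgeR adjusted p of 0.564 and an unadjusted p of 0.0140. In the authors' deposited table the log2 fold change was -0.33 and the adjusted p 0.442. Leaving out each library in turn gave between -0.40 and -0.27, and leaving out replicate 3 of both groups gave -0.27.

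Hmgcs1, the cytosolic HMG-CoA synthase that commits acetyl-CoA to the mevalonate route, stood at 29.98, 27.0 and 22.0 CPM in Ogt-KD libraries, against 31.1, 31.1 and 31.4 CPM in control libraries. The control libraries were almost level and Ogt-KD replicate 1 lay just under them. The log2 fold change was -0.25 (SE 0.13, edgeR adjusted p = 0.729), and it ran from -0.35 without Ogt-KD replicate 1 to -0.13 with replicate 3 of that group left out.

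Acly, ATP citrate lyase, which makes the cytosolic acetyl-CoA that both routes use, had 275, 258 and 260.3 CPM in Ogt-KD libraries, against 309, 291 and 291 CPM in control libraries. The difference was small, and the libraries of each group lay close together. Its log2 fold change was -0.17 (SE 0.08, edgeR adjusted p = 0.705), and stayed between -0.20 and -0.14 when each library was left out. Fads1, a front-end desaturase of long polyunsaturated fatty acids, had 20.7, 21.6 and 21.7 CPM in Ogt-KD libraries, against 22.8, 23.7 and 29.7 CPM in control libraries. Its control group was spread by replicate 3, and its log2 fold change was -0.25 (SE 0.13, edgeR adjusted p = 0.721), or -0.14 without both replicate 3 libraries and -0.15 without control replicate 3.

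The promoters of 3 of these 4 genes are in the RefSeq table used here (GRCm38.p6). They are shown, 250 bases before to 50 after each transcription start and 5′ to 3′ on the strand of the gene, because SREBP acts on such sequence together with the factor NF-Y. Capitals mark matches on either strand to TCACNCCAC, the core of a sterol response element, to CCAAT, the NF-Y box (ATTGG on the other strand), or to CACGTG, an E box. No match overlapped another.
Insig1, chr5:28071162-28071461, plus strand: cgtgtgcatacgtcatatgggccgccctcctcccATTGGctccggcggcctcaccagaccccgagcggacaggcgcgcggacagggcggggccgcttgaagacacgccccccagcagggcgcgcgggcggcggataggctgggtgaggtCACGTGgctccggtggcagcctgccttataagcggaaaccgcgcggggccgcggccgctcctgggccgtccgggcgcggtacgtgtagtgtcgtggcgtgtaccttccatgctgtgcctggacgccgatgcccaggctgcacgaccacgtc
Hmgcs1, chr13:119690101-119690400, plus strand: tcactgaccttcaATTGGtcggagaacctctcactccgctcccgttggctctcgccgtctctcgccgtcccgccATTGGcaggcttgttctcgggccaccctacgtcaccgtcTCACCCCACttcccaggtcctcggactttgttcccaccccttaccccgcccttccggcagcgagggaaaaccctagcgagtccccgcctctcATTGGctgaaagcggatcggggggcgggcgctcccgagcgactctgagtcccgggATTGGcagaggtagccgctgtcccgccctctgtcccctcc
Acly, chr11:100527951-100528250, minus strand: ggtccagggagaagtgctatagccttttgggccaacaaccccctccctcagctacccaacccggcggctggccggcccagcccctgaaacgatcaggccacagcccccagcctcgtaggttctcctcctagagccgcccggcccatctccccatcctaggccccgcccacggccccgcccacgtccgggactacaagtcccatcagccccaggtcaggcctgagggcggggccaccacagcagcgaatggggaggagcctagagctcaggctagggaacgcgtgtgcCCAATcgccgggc

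The Hmgcs1 promoter held 1 sterol element core, whose first base lay 137 bases before the start, and 4 NF-Y boxes. The Insig1 promoter held 1 NF-Y box and, 101 bases before the start, 1 E box, and the Acly window held 1 NF-Y box, after the start. Of the 30 genes 22 had at least 1 promoter in the table. An NF-Y box was present in 17 of these 22, among them 12 of the 13 sterol enzymes with a promoter, against 41.1% of all 27025 genes in the table. The sterol element core was present in 1 of the 22, against 1.44% of all genes, and the E box in 5 of the 22, against 8.09%. These matches are letters in a window and not measured binding.

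Sterol synthesis enzymes did not pass in either direction, with 6 of 16 above 0 and 10 below, and their log2 fold changes had a median of -0.08. Summed over the 16 enzymes, Ogt-KD libraries held 375, 372 and 285 CPM and control libraries 375, 363 and 351 CPM. Ogt-KD replicates 1 and 2 lay within or level with the control range, and Ogt-KD replicate 3 lay under all other libraries. Without Ogt-KD replicate 3 the median was 0.02, with 9 of 16 above 0. Without Ogt-KD replicate 1 it was -0.15, with 13 of 16 below 0. In that last fit Hmgcs1 and Mvk had an unadjusted edgeR p under 0.05, as had 784 of 16682 genes tested, and their edgeR adjusted p was 0.9996. The median was -0.05 without control replicate 1, and between -0.12 and -0.09 without each of the other 3 libraries.

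At the head of the route, Acat2, the cytosolic thiolase that joins acetyl-CoA units, had a log2 fold change of 0.11 (SE 0.20). The kinases that phosphorylate mevalonate went apart in their estimates, with Mvk at -0.27 (SE 0.18) and Pmvk at 0.17 (SE 0.14), while their intervals overlapped. Mvk ran from -0.45 without Ogt-KD replicate 1 to -0.15 with replicate 3 of that group left out, and Pmvk ran from 0.08 without control replicate 1 to 0.24 without Ogt-KD replicate 3. Mvd, which decarboxylates mevalonate diphosphate, stood at 37.0, 38.4 and 29.3 CPM in Ogt-KD libraries, against 30.6, 32.8 and 29.9 CPM in control libraries. Ogt-KD replicates 1 and 2 were above every control library and replicate 3 below them, and the log2 fold change came to 0.17 (SE 0.13, edgeR adjusted p = 0.863). Without Ogt-KD replicate 3 it was 0.28 (edgeR adjusted p = 0.201), and without Ogt-KD replicate 2 it was 0.09.

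Idi1, the isomerase of the isoprenoid units, had -0.17 (SE 0.24), and Fdps, which builds farnesyl diphosphate from them, 0.12 (SE 0.29). Fdps was the lowest member per length, at 0.476 ± 0.0824 FPKM in Ogt-KD libraries and 0.439 ± 0.118 FPKM in control libraries (SD, n = 3 each). The table also lists a processed pseudogene of Fdps at 0 counts in every library, so the division of reads between copies is uncertain and the level of Fdps with it. Fdft1, squalene synthase, the branch point from farnesyl diphosphate to sterols, had 0.02 (SE 0.17). It overlaps the abundant gene Ctsb on the other strand, which held 152717 counts over the 6 libraries against 2725 for Fdft1.

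Sqle, Lss and Cyp51, from the middle of the route, had their lowest values in 1 library. Sqle, squalene epoxidase, a flux-controlling step, stood at 25.1, 24.9 and 15.1 CPM in Ogt-KD libraries, against 26.8, 26.5 and 23.2 CPM in control libraries. Lss, lanosterol synthase, stood at 27.4, 28.2 and 18.1 CPM in Ogt-KD libraries, against 30.01, 27.6 and 29.5 CPM in control libraries. Cyp51, the lanosterol demethylase, stood at 34.4, 37.0 and 23.7 CPM in Ogt-KD libraries, against 40.5, 35.7 and 35.4 CPM in control libraries. In each of the 3 genes Ogt-KD replicate 3 was far under the other libraries, and the other Ogt-KD values lay in or close to the control range.

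Their log2 fold changes were -0.23 (SE 0.20) for Sqle, -0.24 (SE 0.18) for Lss and -0.23 (SE 0.17) for Cyp51, with edgeR adjusted p values from 0.853 to 0.903. Without Ogt-KD replicate 3 they were -0.03, -0.07 and -0.06, and the lowest values with 1 library left out were -0.35, -0.36 and -0.36, each without Ogt-KD replicate 1 or 2. Cyp51 overlaps Akap9 on the other strand, which held 17242 counts against 4425.

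The enzymes that trim lanosterol to cholesterol had log2 fold changes between -0.23 and 0.06. Msmo1, which oxidises its methyl groups, had -0.13 (SE 0.14), Nsdhl, the following decarboxylating dehydrogenase, 0.06 (SE 0.19), and Hsd17b7, the ketone reductase after it, -0.23 (SE 0.25). With each library left out in turn Hsd17b7 ran from -0.38 without control replicate 2 to -0.03 without Ogt-KD replicate 3, and Msmo1 from -0.24 without control replicate 2 to -0.07 without control replicate 3. Sc5d, a desaturase of the sterol ring, had -0.03 (SE 0.09, 95% interval -0.25 to 0.19), the narrowest interval among the 16 enzymes. Dhcr7, which finishes cholesterol in 1 of its branches, had -0.04 (SE 0.14).

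**Figure D2:**
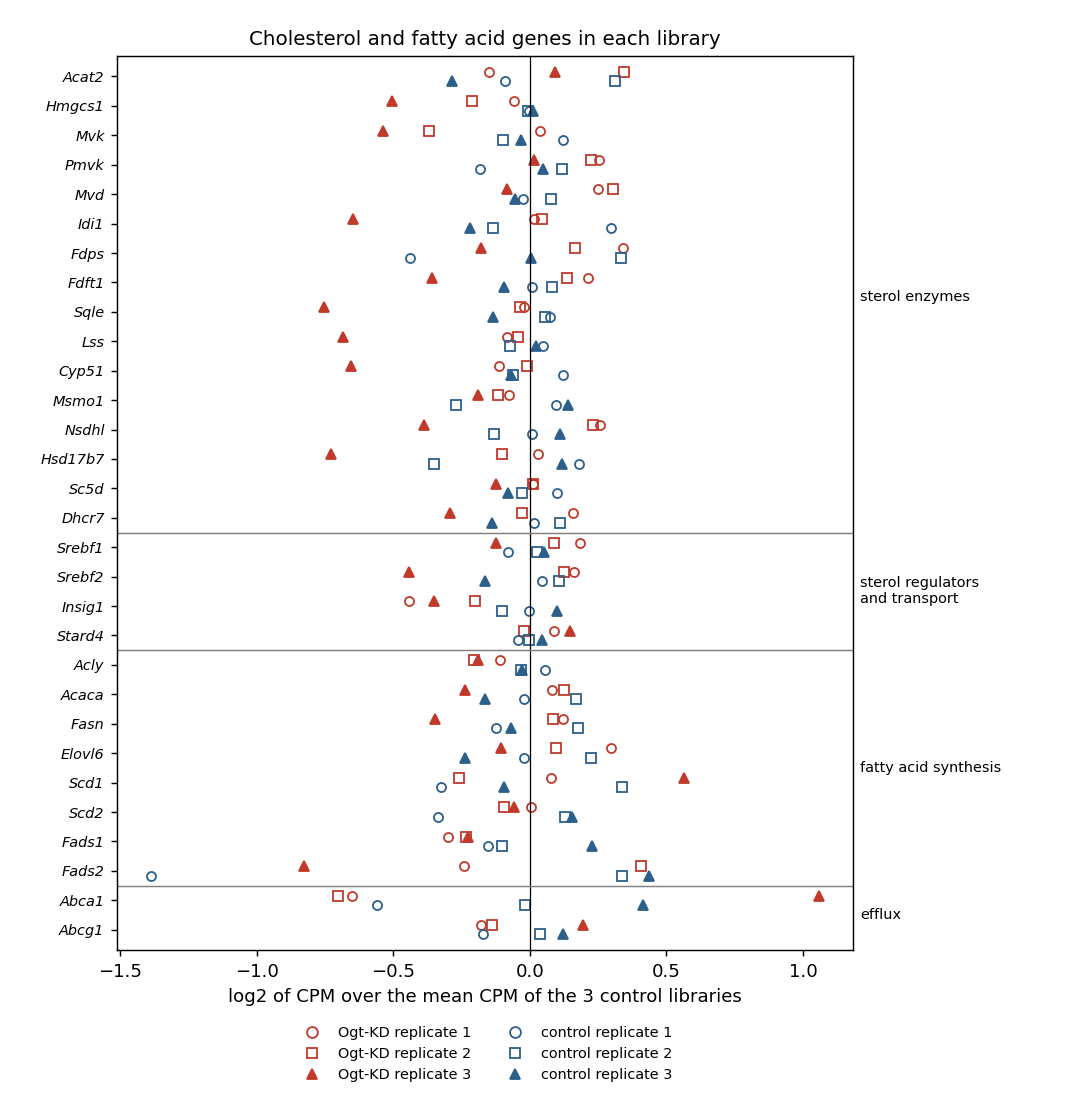
Each of the 30 genes in each library, as the log2 of its CPM over the mean of the 3 control libraries (horizontal axis), Ogt-KD in red above control in blue. Filled triangles are replicate 3, and the red one lies furthest left for 12 of the 16 sterol enzymes and furthest right for Abca1 and Abcg1.

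The clearest pattern among the sterol enzymes was within the Ogt-KD group. Ogt-KD replicate 3 was the lowest of the 6 libraries for 12 of the 16 enzymes, where it was the lowest for 25.3% of all genes tested. Set against the mean of Ogt-KD replicates 1 and 2 on a log2 scale, it was lower for 16 of 16 enzymes, with a median of -0.36, from -0.71 for Sqle to -0.01 for Acat2. Control replicate 3, set against control replicates 1 and 2, was lower for 9 of 16, with a median of -0.06. The same medians over all genes tested were -0.02 and 0.00. The spread within the groups followed, with a median coefficient of variation over the 16 enzymes of 18.9% in Ogt-KD libraries and 8.13% in control libraries.

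Other cell markers moved in the same library. On the same scale Ogt-KD replicate 3 was above its group's other libraries by a median of 2.28 for 10 macrophage markers and 1.80 for 11 erythroid markers, while the medians of 11 dendritic cell markers and 21 cell cycle genes were -1.13 and -0.48. Control replicate 3 was above its own by 1.18 for macrophage and 0.86 for erythroid markers, and there dendritic cell markers were at -1.29 and cell cycle genes at 0.28, with 1 of 21 below 0. For 10 neutrophil markers the medians were -0.86 in Ogt-KD replicate 3 and 0.56 in control replicate 3, and for 6 T cell markers -0.23 and -0.11. The part of these in the level of the sterol enzymes was not tested.

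Cell cycle genes, listed because sterol synthesis accompanies division, had 21 of 21 members above 0, and their median log2 change was 0.79, with 14 higher at an unadjusted p under 0.05, against 5.04% of all genes, and 0 past the adjusted threshold in edgeR. They summed to 2108, 2099 and 1603 CPM in Ogt-KD libraries, against 1128, 1440.1 and 1479 CPM in control libraries. The median of the sterol enzymes was -0.08 in the same libraries, and the difference between the lists was not tested. Markers of some other cell types also lay higher in Ogt-KD libraries. Above 0 were 11 of 11 dendritic cell markers (median 1.07) and 10 of 11 erythroid markers (median 1.55). So were 6 of 6 B cell markers (median 0.32) and 10 of 10 neutrophil markers (median 0.42). In edgeR 0 of each list passed the adjusted threshold, and 4, 4, 1 and 0 were at an unadjusted p under 0.05. Macrophage markers went the other way, with 9 of 10 below 0 (median -0.50) and 0 at an unadjusted p under 0.05. With the replicate number as a block in edgeR, 9 of 10 were lower at an unadjusted p under 0.05 and 0 passed the adjusted threshold. The block put 13.2% of all genes under that unadjusted p, in either direction. Its counts of higher dendritic cell, erythroid, B cell and neutrophil markers were 11, 6, 1 and 0. Dendritic cell markers summed to 1956, 2816 and 1047 CPM in Ogt-KD libraries, against 1216, 1211 and 572 CPM in control libraries. Erythroid markers summed to 47.9, 64.1 and 222 CPM in Ogt-KD libraries, against 41.6, 23.4 and 61.1 CPM in control libraries. The dendritic cell sums overlapped between groups and so did the erythroid ones, and their part in the results on the 30 genes was not tested.

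The regulators of the route other than Insig1 differed by less than the spread between replicates. Of the 4 genes 2 lay above 0 and 2 below, at a median of 0.01, which was -0.07, -0.04 and -0.03 without Ogt-KD replicate 1, Ogt-KD replicate 2 and control replicate 3, and 0.08 without Ogt-KD replicate 3. Srebf2, which encodes the SREBP form that mainly drives sterol genes, stood at 328, 319.6 and 216 CPM in Ogt-KD libraries, against 303, 315 and 262 CPM in control libraries. Replicate 3 was the lowest of each group, and the log2 fold change was -0.03 (SE 0.17, 95% interval -0.44 to 0.38). Without Ogt-KD replicate 3 it was 0.14, and without Ogt-KD replicate 1 it was -0.13.

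Srebf1, whose products mainly drive fatty acid genes, stood at 125, 117 and 101 CPM in Ogt-KD libraries, against 104, 112 and 114 CPM in control libraries, a log2 fold change of 0.05 (SE 0.10) with overlapping groups. Its gene overlaps Rai1 on the other strand, which held 18326 counts against 14504. Stard4, a carrier that moves cholesterol between membranes, had 39.9, 37.0 and 41.4 CPM in Ogt-KD libraries, against 36.4, 37.4 and 38.6 CPM in control libraries. Its log2 fold change was 0.07 (SE 0.09, 95% interval -0.14 to 0.28), from 0.03 without Ogt-KD replicate 3 to 0.12 without Ogt-KD replicate 2.

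Per length, Srebf2 was the higher of the SREBP genes in every library. The ratio of Srebf2 to Srebf1 FPKM was 2.05, 2.14 and 1.67 in Ogt-KD libraries and 2.28, 2.20 and 1.79 in control libraries. The ratio was lowest in replicate 3 of each group and the groups overlapped.

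Fatty acid synthesis genes had 2 of 8 above 0 and 6 below, with a median log2 fold change of -0.04. The 8 genes summed to 770.1, 734 and 666 CPM in Ogt-KD libraries, against 725, 814 and 758 CPM in control libraries, and the groups overlapped. The median was 0.03 without Ogt-KD replicate 3 and 0.07 without control replicate 2, against -0.11 when control replicate 1 was left out, -0.06 for control replicate 3 and -0.08 for each of Ogt-KD replicates 1 and 2.

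Acaca, acetyl-CoA carboxylase, which makes malonyl-CoA, had 35.9, 37.0 and 28.7 CPM in Ogt-KD libraries, against 33.3, 38.1 and 30.2 CPM in control libraries, and its log2 fold change lay at 0 to the second decimal (SE 0.14, 95% interval -0.33 to 0.32). Fasn, the fatty acid synthase that extends it to palmitate, had 270.0, 263 and 195 CPM in Ogt-KD libraries, against 227, 280.4 and 236 CPM in control libraries. Ogt-KD replicate 3 was the lowest library of both genes, and the log2 fold change of Fasn was -0.03 (SE 0.15, 95% interval -0.39 to 0.33). The ratio of Fasn to Acaca FPKM kept between 10.6 and 12.2 over the 6 libraries.

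Elovl6, which elongates palmitate, had a log2 fold change of 0.10 (SE 0.16). Of the stearoyl-CoA desaturases, which put the first double bond into a saturated chain, Scd1 had 0.17 (SE 0.26) and Scd2 -0.05 (SE 0.14). Scd2 stood at 118, 111 and 113 CPM in Ogt-KD libraries, against 93.5, 129 and 131 CPM in control libraries, where replicate 1 was apart. Scd2 was the main form per length, 5.09 to 9.31 times the FPKM of Scd1 in the 6 libraries. Fads2, the partner desaturase of Fads1, was near the lower limit of the data at 1.74 ± 0.736 CPM in Ogt-KD libraries and 1.91 ± 1.03 CPM in control libraries (SD, n = 3 each), and its interval of -1.37 to 1.097 allows more than 2-fold either way.

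**Figure D3:**
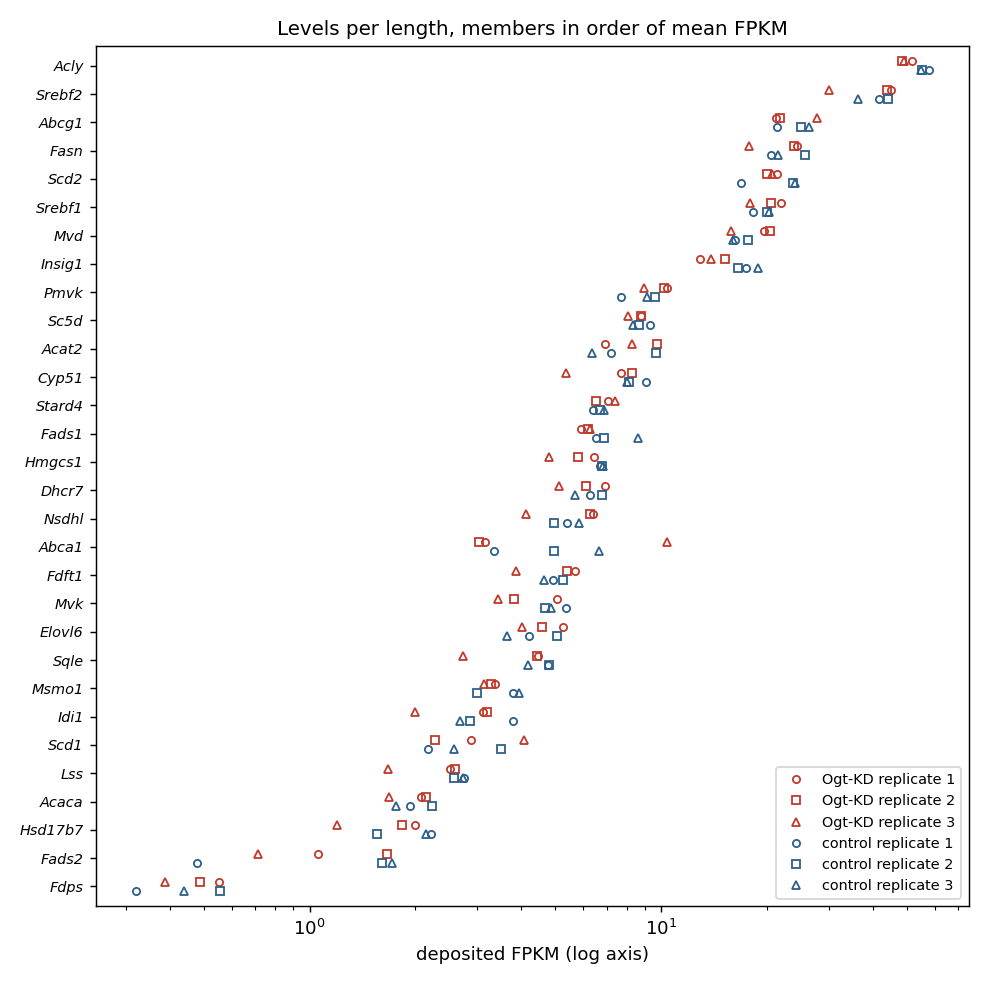
Deposited FPKM (horizontal axis, log scale) of the 30 genes in each library, Ogt-KD in red and control in blue, in order of the mean over all 6 libraries. Acly leads and Fdps and Fads2 close the order, and most neighbours overlap.

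On the FPKM scale, which divides by the deposited gene length, Acly was the highest member. It stood at 49.7 ± 1.67 FPKM in Ogt-KD libraries and 56.0 ± 1.52 FPKM in control libraries (SD, n = 3 each). Its lowest library, at 48.3 FPKM, lay above the highest of Srebf2, at 45.1 FPKM. Abcg1, Fasn, Scd2 and Srebf1 followed with means over the 6 libraries of 23.9, 22.3, 21.1 and 19.8 FPKM and overlapping ranges. Mvd, at a mean of 17.6 FPKM, was the highest of the sterol enzymes, above Pmvk at 9.32 FPKM and Sc5d at 8.63 FPKM, and its lowest library, at 15.8 FPKM, lay above every library of the other 15. The remaining sterol enzymes other than Fdps had means between 1.82 FPKM for Hsd17b7 and 8.03 FPKM for Acat2. This order depends on the length used, 1859 bases for Mvd and 4866 for Sc5d. In CPM, Sc5d lay above Mvd, at means of 41.8 against 34.9 in Ogt-KD libraries and 42.8 against 31.1 in control libraries.

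Neither efflux transporter passed the adjusted threshold, and both were highest in Ogt-KD replicate 3. Abca1, the pump that loads cholesterol onto apolipoprotein A-I and is abundant in macrophages, stood at 33.0, 31.8 and 108 CPM in Ogt-KD libraries, against 35.2, 51.2 and 69.2 CPM in control libraries. In both groups replicate 3 was the highest, and the groups overlapped. The log2 fold change was 0.16 (SE 0.51, 95% interval -1.04 to 1.35), and it turned to -0.68 without Ogt-KD replicate 3, -0.06 without control replicate 1 and -0.42 without both replicate 3 libraries. It was between 0.41 and 0.45 without Ogt-KD replicate 1, Ogt-KD replicate 2 or control replicate 3.

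The 10 macrophage markers, summed above, were also highest in replicate 3 of both groups, and between the groups 9 of 10 lay below 0, at a median log2 change of -0.50. Their part in the level of Abca1 was not tested. Abcg1, which exports cholesterol to high-density lipoprotein, stood at 87.4, 89.8 and 113 CPM in Ogt-KD libraries, against 87.8, 102 and 108 CPM in control libraries. Its log2 fold change was -0.03 (SE 0.13, 95% interval -0.34 to 0.28). Abcg1 was above Abca1 per length in every library, by 2.67 to 7.19 times.

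**Figure D4:**
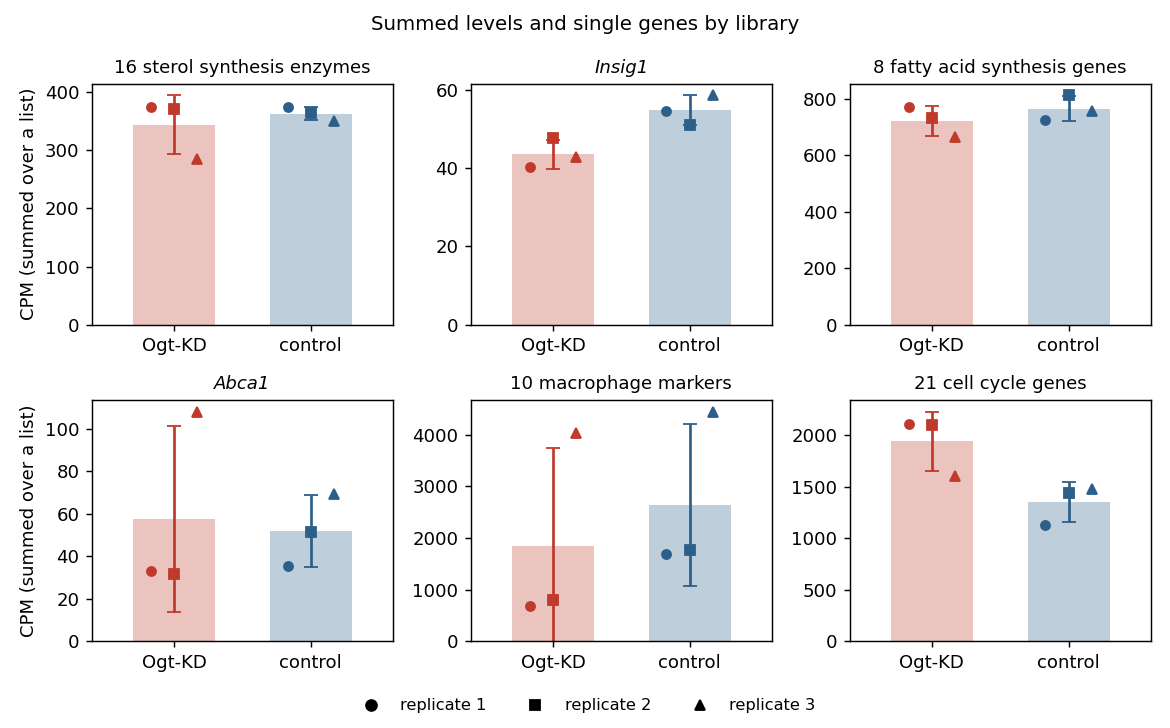
CPM by library for the summed sterol enzymes, Insig1, the summed fatty acid genes, Abca1, the summed macrophage markers and the summed cell cycle genes, Ogt-KD left of control, with bars for the mean, whiskers for the SD (the one that passes 0 ends at the axis) and a symbol for each replicate. Abca1 and the macrophage markers are highest in replicate 3 of each group, and the sterol enzyme sum is lowest in Ogt-KD replicate 3 at 285 CPM.

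Among 44 other genes of these pathways, 39 passed the filter on low counts, and 0 passed the adjusted threshold in edgeR, with 8 above 0 and 31 below, where 49% of all genes lay above 0. At an unadjusted p under 0.05 there were 6, of which 2 were higher and 4 lower, against 5.04% of all genes higher and 2.48% lower. The genes with the smallest p were Fabp5, Soat2, Acsl3 and Nr1h3. Of 17 other sterol genes 2 lay above 0, of 15 fatty acid genes 6, and of 7 genes tied to liver X receptors and efflux 0.

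Fabp5, a fatty acid carrier of activated T cells and other cells, stood at 33.0, 42.0 and 37.4 CPM in Ogt-KD libraries, against 25.3, 22.5 and 26.0 CPM in control libraries. The groups were separate, and the log2 fold change came to 0.61 (SE 0.12, edgeR adjusted p = 0.483). Soat2, which esterifies cholesterol for storage, stood at 17.4, 18.9 and 7.11 CPM in Ogt-KD libraries, against 5.89, 7.33 and 6.37 CPM in control libraries. Ogt-KD replicates 1 and 2 were well above the controls and replicate 3 lay among them, and the log2 fold change came to 1.15 (SE 0.36, edgeR adjusted p = 0.569).

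Acsl3, which activates fatty acids to their CoA esters, stood at 5.54, 7.35 and 7.71 CPM in Ogt-KD libraries, against 10.1, 9.22 and 11.2 CPM in control libraries. The groups did not overlap, and the log2 fold change came to -0.56 (SE 0.19, edgeR adjusted p = 0.583). Nr1h3, which encodes liver X receptor alpha and is expressed in macrophages, stood at 19.1, 21.2 and 28.2 CPM in Ogt-KD libraries, against 30.8, 30.2 and 51.7 CPM in control libraries. Replicate 3 was the highest in each group, as for the macrophage markers, and the log2 fold change was -0.72 (SE 0.25, edgeR adjusted p = 0.604). The part of macrophage RNA in that difference was not tested.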

How the data were processed

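RNA of splenic CD4+ T cells was sequenced in 3 Ogt-KD and 3 control libraries, made with an Illumina TruSeq kit. Per the submitters' processing notes the tools were Bowtie2 2.0.6 and TopHat2 2.0.9 with build mm9. Counting tool, strand setting and the authors' test: not given in the sources used here. Gene positions in the table match GENCODE M21 on GRCm38, not mm9: 54409 of 54532 identifiers matched, 53499 with identical start and end.

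The authors deposited read counts per gene, and FPKM, which equal the count over gene length (in bases, an other unit) and 1 constant per library. The deposited signal columns (means of each group) were left unused. The authors' log2 fold change with its p-value is quoted as theirs.

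Counts were tested in edgeR 4.0.16 (R 4.3.3) with a robust quasi-likelihood fit, TMM scaling, filterByExpr and Benjamini-Hochberg adjustment over 16075 genes at 0.05. CPM are counts scaled by TMM library size. DESeq2 1.42.0 and limma 3.58.1 (voom) were alternatives. The fit was tested on simulated data with 100 genes changed 2-fold and 100 changed 4-fold. It called 50% of the 2-fold and 85.9% of the 4-fold changes, so true 2-fold changes can be missed. The changed genes all lay above a minimum mean count. Counts were drawn independently for each library, without the differences shared by the replicate 3 libraries, so these shares may not hold for the real data. No library was a copy of another (chi-squared per degree of freedom at least 10.8). Shares and matches in promoters come from RefSeq. All 30 members are named, with the 4 other pathway genes of smallest p. Members, lists and tests were chosen with earlier results of these data known.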

Additional observations from a re-analysis of the deposited data

How the results depend on the processing

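Across 14 alternatives 0 of the 30 genes passed the adjusted threshold. The medians of the 4 gene groups moved by less than the SD between replicates of the median centred log2 CPM of each. That SD took in replicate 3 and was wide, at 0.28 for sterol enzymes and 0.60 for efflux genes. A median could therefore change sign and still count as unmoved. Without both replicate 3 libraries the efflux median went from 0.06 to -0.26 and the fatty acid median from -0.04 to 0.03. Over all genes tested edgeR called 1, against 4 with no filter, 111 with DESeq2, 47 with the replicate block, 35 without both replicate 3 libraries and between 1 and 2 when each library was left out. With the replicate block the smallest adjusted p among the 30 was 0.234 for Insig1 by edgeR, and it changed no call of a member, while 4 of 11 dendritic cell and 2 of 11 erythroid markers passed with it. The deviations of same-numbered libraries from their group means correlated across genes at 0.0937, 0.404 and 0.583, and at 0.109, 0.346 and 0.523 with edgeR's own log CPM. Ogt-KD replicate 1 lay nearer to control replicate 2 (0.334), so the numbers were not taken to pair the libraries.

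Of 420 single gene values under these alternatives 50 changed direction, all of them of genes that passed in neither setting, and 12 of the 30 genes never did. The opposite log2 fold changes were as follows. With upper quartile scaling they were Acaca 0.00734. With no filter they were Fdft1 -0.00109. With a filter of 1 CPM in 3 libraries they were Acaca 0.000288. With limma-voom they were Fdft1 -0.0245 and Abca1 -0.00484. With the replicate block they were Abca1 -0.0346. With both replicate 3 libraries left out they were Acat2 -0.00895, Hsd17b7 0.027, Dhcr7 0.000392, Srebf2 0.065, Acaca 0.0256, Fasn 0.0686, Scd1 -0.13, Scd2 0.0371, Fads2 0.38 and Abca1 -0.42. Where each library was left out in turn, the ranges of the genes that changed direction were Acat2 -0.035 to 0.30, Idi1 -0.29 to 0.0271, Fdps -0.0607 to 0.33, Fdft1 -0.0895 to 0.17, Nsdhl -0.0451 to 0.24, Sc5d -0.0926 to 0.0186, Dhcr7 -0.15 to 0.0639, Srebf1 -0.0114 to 0.13, Srebf2 -0.13 to 0.14, Acaca -0.10 to 0.10, Fasn -0.11 to 0.10, Elovl6 -0.023 to 0.23, Scd1 -0.0854 to 0.38, Scd2 -0.19 to 0.0212, Fads2 -0.53 to 0.12, Abca1 -0.68 to 0.45 and Abcg1 -0.16 to 0.0405. The cause was not tested.

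With 3 libraries a group and the spread above, the 95% intervals passed 2-fold for Fads2 and Abca1. These p-values and intervals do not cover repeated reads of 1 molecule, since no molecular identifiers are named in the labels.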
